A study of Mus musculus with 4 samples.

Results

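The 39 genes described here are those of the glutathione, thioredoxin, peroxiredoxin, superoxide and NRF2 systems, with which cells remove reactive oxygen species and reactive electrophiles. They were chosen by name, and their rows were found by gene symbol among the 19645 features measured in each library, 17710 of which carry a symbol. Glutathione is a tripeptide that is made from glutamate, cysteine and glycine, is oxidised by peroxidases or joined to electrophiles by transferases, and is returned to its reduced form with NADPH. Peroxiredoxins remove hydrogen peroxide in a parallel chain that draws on thioredoxin and thioredoxin reductase, and superoxide dismutases and catalase act without either thiol. NRF2, encoded by *Nfe2l2*, is the transcription factor that switches on many of these genes when its repressor KEAP1 is modified by oxidants, and it binds with small MAF proteins to the antioxidant response element. Pluripotent cells are known to rely mainly on glycolysis, and mitochondrial respiration is one source of superoxide.

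Undifferentiated mouse embryonic stem cells (ESCs) of wild-type (WT) genotype and cells knocked out (KO) for *Bmal1* were compared, with 2 libraries of each. BMAL1, encoded by *Arntl*, is the partner of CLOCK in the transcription factor that drives the circadian clock and binds E-box sequences. The KO line is 1 clone, made by CRISPR-Cas9 editing of exon 5, in which a small deletion shifts the reading frame and BMAL1 protein is lost. No compound was given to either genotype as a treatment. The edited cells were selected with puromycin when the clone was made, and no such step is stated for WT. The study's culture conditions for both were gelatin-coated plates and serum with LIF and 2-mercaptoethanol, which is itself a reducing thiol. Total RNA was depleted of ribosomal RNA and sequenced, and the values are FPKM (fragment numbers divided by transcript length and by library size). These divisions do not correct for libraries that differ in composition, and other scalings are given at the end. The methods call the libraries biological replicates, but no separate clones are named. Therefore, the p-values measure only the spread between these libraries, and genotype and line cannot be told apart.

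*Arntl* itself had 6.05 and 6.29 FPKM in WT replicates 1 and 2 and 5.95 and 5.92 FPKM in KO replicates 1 and 2, a log2 fold change of -0.06 (adjusted p = 0.750 from limma), which did not pass the test although both KO values lie under both WT values. The 8 markers of ESCs summed to 6431 and 6308 FPKM in WT and 6245 and 5886 FPKM in KO, and 2 of the 8, *Klf4* and *Tdgf1*, were lower in KO. Of 7 fibroblast markers, 5 had a row and summed to between 1.67 and 2.93 FPKM, most of it *Thy1*, and the 6 endoderm markers with a row summed to between 0.879 and 1.18 FPKM. In contrast, 4 Y-linked genes summed to 1.75 and 2.54 FPKM in WT and 64.6 and 78.9 FPKM in KO, so the lines also differ in their Y-linked RNA, whose part in the results below was not tested. *Ddx3y*, *Eif2s3y* and *Uty* made up this difference, while *Kdm5d* had at most 0.0168 FPKM in any library. The median FPKM over features was between 2.32 and 2.46 in the 4 libraries, and features without a symbol took between 18.1% and 37.3% of the summed FPKM, with the larger shares in WT. The number of reads is unknown, so precision was judged from the spread between replicates. On the log2 scale, replicates of the antioxidant genes had a median SD of 0.0641, and those of all features tested 0.10. In such bulk samples, fewer cells with a transcript and less transcript per cell cannot be told apart.

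To show what the promoters of these genes hold, the reference sequence from 250 bases before to 50 bases after the annotated start (RefSeq, GRCm38) was searched for the core of the antioxidant response element, TGACNNNGC or its reverse complement, and for the palindromic E-box CACGTG bound by BMAL1 with CLOCK. A window was at hand for 33 of the 39 genes, and *Gclc*, *Gsr*, *Gsta4*, *Prdx6*, *Hmox1* and *Nnt* were the 6 without one. The antioxidant core was found in 10 of the 33 genes (30.3%), against 14.0% of 27025 genes with a window, and the E-box in 1 of them (3.03%), against 8.09%. Those with the antioxidant core were *Gclm*, *G6pdx*, *Pgd*, *Gstm5*, *Mgst1*, *Prdx1*, *Srxn1*, *Txnrd1*, *Sod1* and *Nfe2l2*, and only *Gstm5* and *Nfe2l2* of these 10 passed the test described below. The stretches of these last 2 genes are shown first, then those of 4 textbook NRF2 targets that did not pass the test, and last the single E-box, with the matched letters in capitals and 10 bases on either side, all 5′ to 3′ on the strand of the gene. The matches begin at -42 from the start site in *Gstm5* (chr3:107895802-107895830, plus strand), -240 in *Nfe2l2* (chr2:75704885-75704913, minus strand), -134 in *Gclm* (chr3:122245413-122245441, plus strand), -133 in *Prdx1* (chr4:116685456-116685484, plus strand), -92 in *Txnrd1* (chr10:82859104-82859132, plus strand), -57 in *G6pdx* (chrX:74428919-74428947, minus strand) and -52 in *Prdx4* (chrX:155338497-155338522, minus strand).
Gstm5: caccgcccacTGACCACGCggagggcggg
Nfe2l2: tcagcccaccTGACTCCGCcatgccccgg
Gclm: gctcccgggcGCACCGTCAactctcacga
Prdx1: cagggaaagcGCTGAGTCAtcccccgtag
Txnrd1: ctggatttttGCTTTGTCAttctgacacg
G6pdx: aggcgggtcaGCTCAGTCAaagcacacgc
Prdx4 (E-box): agcttgcgccCACGTGgcggaggggc
Among the stretches printed, the cores of *Gstm5* and *Nfe2l2* lie in the forward orientation and those of the other 4 genes in the reverse. The core of *Pgd*, which is not printed, is also forward, and *Pgd* did not pass the test. A match describes the letters of the reference and is not a measured binding site, and a window without a match does not speak of sites elsewhere.

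Most of the antioxidant genes had higher FPKM in *Bmal1* KO ESCs, by amounts that were small for many of them. KO was compared with WT by limma on log2(FPKM + 0.1) across the 12990 features whose FPKM averaged 0.5 or more, with Benjamini-Hochberg adjustment over all of them, and a gene is said to rise or fall where its adjusted p was under 0.05. Of the 39 genes, 38 passed the filter and *Slc7a11* did not. Among these 38, 10 rose and 1 fell, while 6.85% of all features tested rose and 5.6% fell. *Gstm5* alone rose by more than 2-fold and none fell by as much, against 2.72% and 1.42% of all features. The median log2 fold change of the 38 genes was 0.21, with a range from -0.69 to 1.55, and the median of all features was -0.02. In 28 of the 38 genes both KO libraries were higher than both WT libraries, and in 4 they were lower, with overlap in the other 6. Over all features these shares were 27% and 31.7%. These counts describe genes that were chosen with results of these data known, and *Mgst1* passed the filter only through its level in KO.

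**Figure D1:**
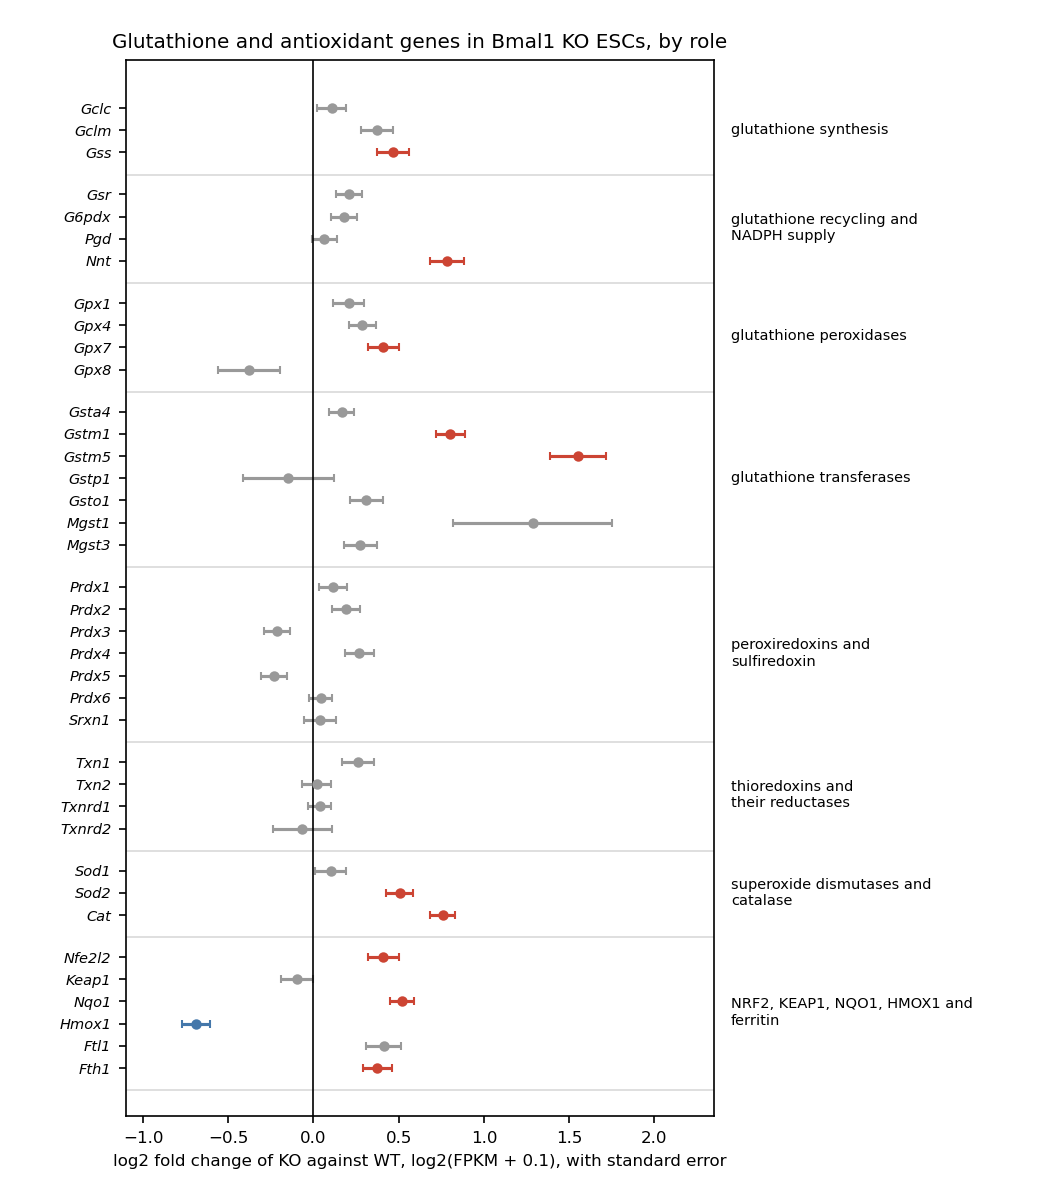
Difference of KO minus WT in mean log2(FPKM + 0.1) (x axis) for the 38 antioxidant genes tested, in groups by role, with bars of 1 standard error. Red points rose and the blue point fell at an adjusted p under 0.05, and grey points did not pass; *Gstm5* lies farthest to the right at 1.55 and *Hmox1* farthest to the left at -0.69.

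**Figure D2:**
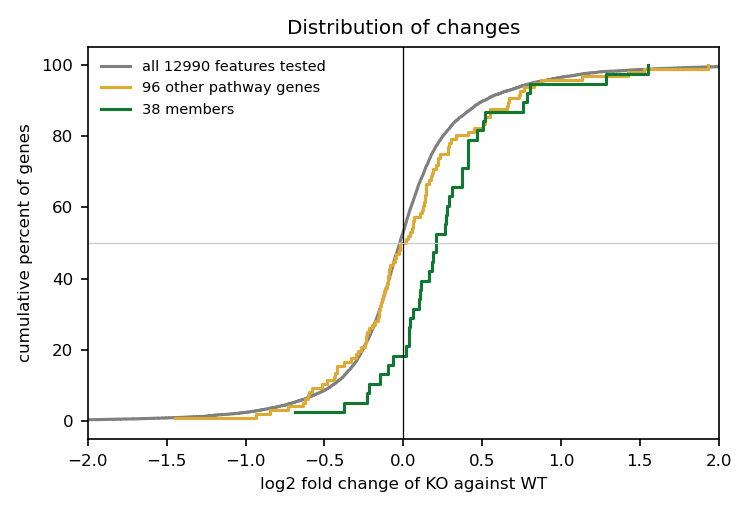
Cumulative percent of genes (y axis) against the log2 fold change, KO over WT (x axis) for all 12990 features tested (grey), 96 other genes of the same pathways (gold) and the 38 antioxidant genes (green). The green line crosses 50 percent at 0.21 and the other lines close to 0; log2 fold changes beyond 2 in either direction lie outside the plot.

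Glutathione synthesis begins with cystine, which the transporter SLC7A11 brings into the cell. *Slc7a11* was almost silent, with 0.247 and 0.258 FPKM in WT and 0.273 and 0.321 FPKM in KO, on a feature that spans 0.143 of the annotated gene, and it was not tested. The catalytic subunit of glutamate-cysteine ligase, *Gclc*, had between 24.9 and 28.6 FPKM over the 4 libraries, a log2 fold change of 0.11 that did not pass the test (adjusted p = 0.453). Its modifier subunit *Gclm* had 48.8 and 51.2 FPKM in WT and 60.4 and 69.3 FPKM in KO, and just missed the threshold with a log2 fold change of 0.37 (adjusted p = 0.0547). *Gss*, which encodes glutathione synthetase and completes the tripeptide, rose (ENSMUSG00000027610.17, chr2:155563181-155592810). It had 13.2 and 12.3 FPKM in WT and 18.4 and 16.9 FPKM in KO, a difference of 0.47 on the log2 scale (standard error 0.09, adjusted p = 0.0308). In the 3 tested genes of glutathione synthesis each KO value exceeded each WT value, an order found in 27% of all features, and only *Gss* passed. *Slc7a11* had the same order, but its level was below the filter. The call for *Gss* was lost when WT replicate 2 (log2 fold change 0.42) or KO replicate 1 (0.41) was left out.

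Oxidised glutathione is reduced again by glutathione reductase with NADPH from the pentose phosphate pathway in the cytosol and from the proton-driven transhydrogenase NNT in mitochondria. *Nnt* (ENSMUSG00000025453.18, chr13:119335448-119408997) rose 1.72-fold. Its FPKM was 6.51 and 5.99 in WT and 10.7 and 10.9 in KO, a log2 fold change of 0.78 with a standard error of 0.10 (adjusted p = 0.00947), and the gap between the genotypes was wide against the spread within each. The reference genome comes from C57BL/6J mice, which lack several exons of *Nnt*, so reads from those exons would not be counted in either genotype. The remaining genes of this step did not pass. Glutathione reductase, *Gsr*, had 65.6 and 68.7 FPKM in WT and 75.8 and 79.6 FPKM in KO, a log2 fold change of 0.21 (adjusted p = 0.129). The pentose phosphate dehydrogenases *G6pdx*, with 34.2 to 40.1 FPKM, and *Pgd*, with 115 to 126 FPKM, had log2 fold changes of 0.18 and 0.06 (adjusted p = 0.180 and 0.603), and *G6pdx* is X-linked.

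Glutathione peroxidases use glutathione to reduce peroxides. The most abundant of the 4, *Gpx1*, had 432 and 428 FPKM in WT and 529 and 465 FPKM in KO, a log2 fold change of 0.21 that did not pass (adjusted p = 0.190). *Gpx4*, which reduces lipid hydroperoxides in membranes and guards against ferroptosis, had 290 and 314 FPKM in WT and 358 and 379 FPKM in KO and did not pass either (log2 fold change 0.29, adjusted p = 0.0764), on a feature whose coordinates 43 rows share. Of the endoplasmic reticulum peroxidases, *Gpx7* (ENSMUSG00000028597.11, chr4:108400390-108406961) rose and *Gpx8* did not pass. *Gpx7* had 9.89 and 9.42 FPKM in WT and 12.7 and 13.1 FPKM in KO, a difference of 0.41 on the log2 scale (standard error 0.09, adjusted p = 0.0390), but the call was lost without any 1 of the 4 libraries (adjusted p from 0.0600 to 0.137). *Gpx8* had 3.25 and 3.02 FPKM in WT and 2.05 and 2.77 FPKM in KO (log2 fold change -0.38, adjusted p = 0.229). It was the only peroxidase of the 4 with both KO libraries below WT, where 31.7% of all features were.

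The 2 largest rises that passed the test among the 39 genes were those of mu class transferases, enzymes that conjugate glutathione to electrophiles. *Gstm5* (ENSMUSG00000004032.10, chr3:107895821-107898686) was measured at 1.90 and 2.38 FPKM in WT and at 5.92 and 6.98 FPKM in KO. This is a log2 fold change of 1.55 with a standard error of 0.16 (adjusted p = 0.00604), or 2.93-fold, on a feature that shares its coordinates with 4933431E20Rik, between which reads could be divided. *Gstm1* (ENSMUSG00000058135.12, chr3:108012255-108017973) had 15.4 and 14.8 FPKM in WT and 27.5 and 25.3 FPKM in KO, a difference of 0.80 on the log2 scale (standard error 0.09, adjusted p = 0.00629). In both genes each KO library lay far above each WT library, and neither call was lost under any alternative or without any library. The mu class genes are closely related copies in 1 cluster, so reads may also be shared among them.

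The other 5 transferases did not pass the test. The alpha class gene *Gsta4*, whose enzyme acts on the lipid aldehyde 4-hydroxynonenal, was the most abundant, with 367 and 372 FPKM in WT and 423 and 406 FPKM in KO (log2 fold change 0.16, adjusted p = 0.192). The omega class gene *Gsto1* had 18.6 and 17 FPKM in WT and 23.3 and 21.0 FPKM in KO (log2 fold change 0.31, adjusted p = 0.0979), and the microsomal transferase *Mgst3* had 30.7 and 30.8 FPKM in WT and 40.2 and 34.4 FPKM in KO (log2 fold change 0.28, adjusted p = 0.129). *Mgst1* was scarce and scattered, with 0.172 and 0.437 FPKM in WT and 1.13 and 0.604 FPKM in KO. Its log2 fold change of 1.29 had a standard error of 0.47 and did not pass (adjusted p = 0.136), although it passed without WT replicate 2 (0.00438). The pi class row, which merges *Gstp1* with *Gstp2*, had 118 and 181 FPKM in WT and 164 and 106 FPKM in KO (log2 fold change -0.15, adjusted p = 0.746). Its replicates were as far apart as 0.631 on the log2 scale and the genotypes overlapped, and without WT replicate 1 it passed as lower in KO (log2 fold change -0.46, adjusted p = 0.0468).

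No gene of the thioredoxin branch passed the limma test. This branch comprised 6 peroxiredoxin genes, the sulfiredoxin gene *Srxn1*, whose product repairs over-oxidised peroxiredoxins, and 4 genes for thioredoxins and their reductases. At an unadjusted p under 0.05, 2 of these 11 genes were higher and 2 lower, where 14.1% of all features were higher and 15.5% lower, so these counts are near the background. The medians of the log2 fold changes were 0.04 over the peroxiredoxins with *Srxn1* and 0.03 over the thioredoxins and reductases. The cytosolic peroxiredoxin *Prdx1* was the most abundant of them, with 718 and 754 FPKM in WT and 770 and 825 FPKM in KO (log2 fold change 0.12, adjusted p = 0.396). *Prdx2*, also cytosolic, had 382 and 360 FPKM in WT and 442 and 405 FPKM in KO (log2 fold change 0.19, adjusted p = 0.192). The X-linked gene *Prdx4*, whose protein works in the endoplasmic reticulum and whose promoter holds the E-box printed above, had 40.2 and 41.1 FPKM in WT and 46.5 and 51.7 FPKM in KO (log2 fold change 0.27, adjusted p = 0.0958). Across the 11 genes of this branch, 6 had higher FPKM in each KO library than in either WT library, and 2 had lower. Over all features, 27% were higher and 31.7% lower in this way. Of the 7 peroxiredoxin and sulfiredoxin genes, 4 were higher in this way and 2 lower, the latter a share near the 31.7%. Mitochondrial *Prdx3* had 45.6 and 46.6 FPKM in WT and 38.4 and 41.1 FPKM in KO (log2 fold change -0.22, adjusted p = 0.132). *Prdx5*, found in mitochondria and elsewhere, had 76.8 and 76.2 FPKM in WT and 62.7 and 67.9 FPKM in KO (log2 fold change -0.23, adjusted p = 0.112). The log2 fold change was 0.04 for both *Prdx6*, with 92.9 to 98.0 FPKM, and *Srxn1*, with 28.4 to 32.2 FPKM.

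Among the thioredoxins, cytosolic *Txn1* had 379 and 431 FPKM in WT and 469 and 500 FPKM in KO (log2 fold change 0.26, adjusted p = 0.128). Mitochondrial *Txn2* had between 85.0 and 94.2 FPKM, and its genotypes overlapped (log2 fold change 0.02, adjusted p = 0.898). The cytosolic reductase *Txnrd1*, a textbook NRF2 target, had 136 and 135 FPKM in WT and 137 and 140 FPKM in KO, and its log2 fold change was 0.04 (standard error 0.07, adjusted p = 0.753). The mitochondrial reductase *Txnrd2* was low and overlapping, with 2.80 and 2.46 FPKM in WT and 2.81 and 2.23 FPKM in KO, and its log2 fold change of -0.07 (adjusted p = 0.831) had the opposite sign without WT replicate 1 (0.02) or KO replicate 2 (0.09).

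Catalase and the mitochondrial superoxide dismutase both rose, whereas the cytosolic dismutase did not pass. *Cat* (ENSMUSG00000027187.10, chr2:103453849-103485160), whose enzyme breaks down hydrogen peroxide in peroxisomes, had 25.4 and 25.0 FPKM in WT and 43.0 and 42.5 FPKM in KO. The replicates were nearly equal, and the log2 fold change was 0.76 (standard error 0.07, adjusted p = 0.00522), or 1.69-fold. *Sod2* (ENSMUSG00000006818.5, chr17:13006846-13040063), the manganese enzyme of the mitochondrial matrix, was measured on a feature that spans 0.426 of the annotated gene and had 44.7 and 48.9 FPKM in WT and 65.6 and 67.3 FPKM in KO, a log2 fold change of 0.51 with a standard error of 0.08 (adjusted p = 0.0165). The copper-zinc enzyme gene *Sod1* was the second most abundant of the 39 genes and overlapped between genotypes, with 1219 and 1368 FPKM in WT and 1405 and 1364 FPKM in KO (log2 fold change 0.10, adjusted p = 0.514).

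NRF2 itself and the detoxifying quinone reductase NQO1 were higher in KO at the RNA level, and heme oxygenase 1 was lower. *Nfe2l2* (ENSMUSG00000015839.6, chr2:75675513-75704641) had 23.3 and 26.4 FPKM in WT and 33.1 and 32.8 FPKM in KO, a difference of 0.41 on the log2 scale (standard error 0.09, adjusted p = 0.0406). Both KO libraries were higher, but the call was lost without WT replicate 1 (adjusted p = 0.137), KO replicate 1 (0.0882) or KO replicate 2 (0.0785). *Keap1*, whose protein holds NRF2 for degradation, overlapped between genotypes with 17.7 and 15.8 FPKM in WT and 15.9 and 15.3 FPKM in KO (log2 fold change -0.10, adjusted p = 0.543). *Nqo1* (ENSMUSG00000003849.8, chr8:107388225-107403206) had 39.8 and 39.6 FPKM in WT and 56.6 and 57.2 FPKM in KO, a log2 fold change of 0.52 with a standard error of 0.07 (adjusted p = 0.0109), on a feature whose coordinates 4 rows share. The replicates of *Nqo1* almost coincided within each genotype.

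*Hmox1* (ENSMUSG00000005413.8, chr8:75093621-75100589), which encodes the enzyme that breaks down heme to biliverdin, carbon monoxide and iron, was the 1 antioxidant gene of the 38 tested that fell. Its FPKM was 136 and 128 in WT and 86.0 and 77.3 in KO, with each KO library far below each WT library. The log2 fold change was -0.69 (standard error 0.08, adjusted p = 0.00881), or 0.620 of the WT level, and it stayed past the threshold under all 10 alternatives and without any 1 library. The ferritin chains store the iron that heme breakdown frees, and both had higher FPKM in KO. The heavy chain *Fth1* (ENSMUSG00000024661.7, chr19:9980598-9985098) had 576 and 635 FPKM in WT and 765 and 803 FPKM in KO, and rose by 0.37 on the log2 scale (standard error 0.09, adjusted p = 0.0443). That call was lost without WT replicate 1 (adjusted p = 0.166), KO replicate 1 (0.0708) or KO replicate 2 (0.124). The light chain *Ftl1* was the most abundant of the 39 genes, with 5067 and 5080 FPKM in WT and 7072 and 6438 FPKM in KO, and just missed the threshold (log2 fold change 0.41, adjusted p = 0.0561). Both ferritin genes have processed copies elsewhere in the genome that could share their reads. *Ftl1* made up a large part of the summed FPKM of the 39 genes, which was 10744 and 11111 in WT and 13678 and 12967 in KO; without it the sums were 5677 and 6031 in WT and 6607 and 6529 in KO.

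**Figure D3:**
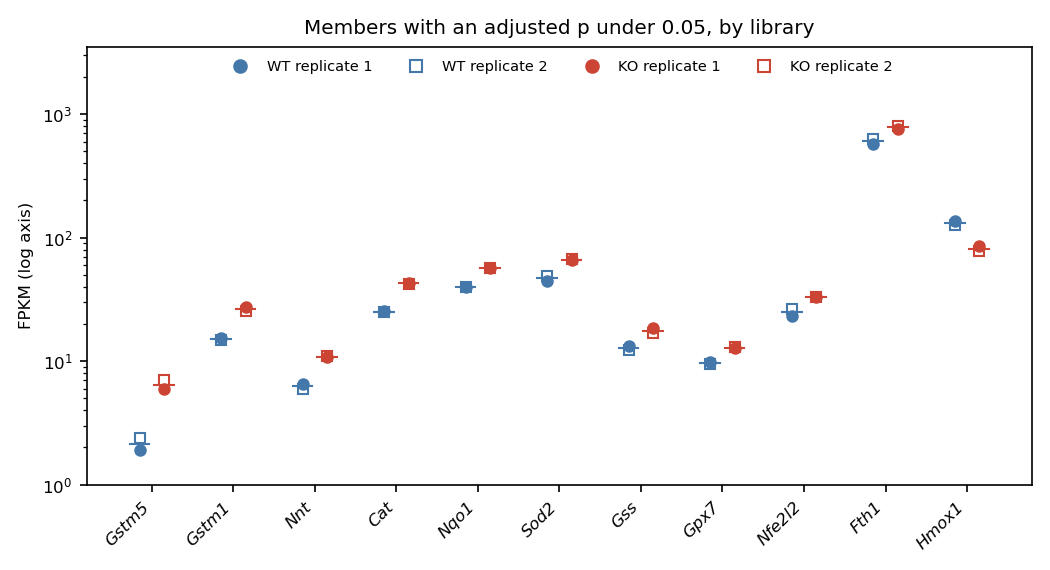
FPKM on a log axis (y axis) in each library for the 11 antioxidant genes that passed the test (x axis), with WT in blue, KO in red, circles for replicate 1, squares for replicate 2 and a short line at the mean of each genotype. Both KO marks lie above both WT marks in 10 genes and below them in *Hmox1*, from 81.7 FPKM on average in KO to 132 in WT.

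To see whether these changes extend to the rest of the pathways, 107 further genes were taken from 5 written lists, of which 96 were tested. *Gstp2* was not counted, since its row is the one merged with *Gstp1*. Of the 96 genes, 10 rose (10.4%) and 13 fell (13.5%), against 6.85% and 5.6% of all features, and the median log2 fold change was 0.000831. In 4 of them 1 genotype averaged under the minimum of 0.5 FPKM, so that they passed the filter only through KO. Of the other glutathione genes, 4 of 35 rose and 6 fell. Of the other thioredoxin and methionine sulfoxide genes, 1 of 18 rose and 3 fell, and of the other NRF2 regulators and targets, 5 of 23 rose and 3 fell. Of the 7 genes for selenoprotein synthesis 1 fell and none rose (2 and 0 at an unadjusted p under 0.05), and the log2 fold changes had a median of -0.13, all 7 below 0 where 53.2% of all features were. None of the 13 tested genes for iron handling and ferroptosis passed in limma, and at an unadjusted p under 0.05 the 2 that were higher and the 1 that was lower are near or under the background shares given above.

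The features of the mu class cluster on chromosome 3 span 107877230 to 108044859, beginning with the coordinates that *Gstm5* shares with 4933431E20Rik. Beside *Gstm1* and *Gstm5*, the cluster holds 5 tested genes, and of these *Gstm2* rose. *Gstm2* had 6.31 and 6.49 FPKM in WT and 19.4 and 17.8 FPKM in KO, a log2 fold change of 1.52 with a standard error of 0.09 (adjusted p = 0.00169). *Gstm3*, *Gstm4*, *Gstm6* and *Gstm7*, named after their values were seen to complete the class, did not pass, with log2 fold changes of 0.67, 0.14, 0.52 and 0.45, and the KO libraries lay above WT in 6 of the 7 genes, against 27% of all features. *Gstm3* passed the filter only through KO. The FPKM of the 7 genes summed to 32.3 and 31.4 in WT and 63.8 and 59.4 in KO. The theta class gene *Gstt1* showed the largest rise of the 96 other genes, from 1.05 and 1.38 FPKM in WT to 5.23 and 4.54 FPKM in KO (log2 fold change 1.93, standard error 0.19, adjusted p = 0.00522). Its neighbours *Gstt2* and *Gstt3*, named for the same reason, had log2 fold changes of 0.30 and 0.66 and did not pass.

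Within the peroxidases, the direction differed from gene to gene. *Gpx2*, best known from the intestinal epithelium, fell from 29.4 and 31.1 FPKM in WT to 11.4 and 10.7 FPKM in KO, a difference of -1.45 on the log2 scale (standard error 0.09, adjusted p = 0.00169). *Gpx6* rose from 0.250 and 0.342 FPKM to 1.02 and 0.890 FPKM (log2 fold change 1.42, adjusted p = 0.0338), but it passed the filter only through its level in KO, and the call was lost without KO replicate 1 (0.115) or KO replicate 2 (0.0661). Of the enzymes that supply or recover the amino acids of glutathione, cystathionine beta-synthase *Cbs*, at the entry of the transsulfuration route to cysteine, had 17.6 and 16.3 FPKM in WT and 11.4 and 10.4 FPKM in KO and fell (log2 fold change -0.63, adjusted p = 0.0151). *Ggct*, which breaks down gamma-glutamyl peptides, fell by a log2 fold change of -0.60 (adjusted p = 0.0244), and *Oplah*, which opens the 5-oxoproline that GGCT releases, rose by 0.67 (adjusted p = 0.0424). The call for *Ggct* was lost without WT replicate 2 (0.0501), and that for *Oplah* without WT replicate 2 (0.101), KO replicate 1 (0.0857) or KO replicate 2 (0.126). *Chac1*, which degrades glutathione, and the glutaminase gene *Gls2*, both named after their values were seen, also fell (log2 fold changes -0.51 and -0.58, adjusted p = 0.0189 and 0.0132).

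**Figure D4:**
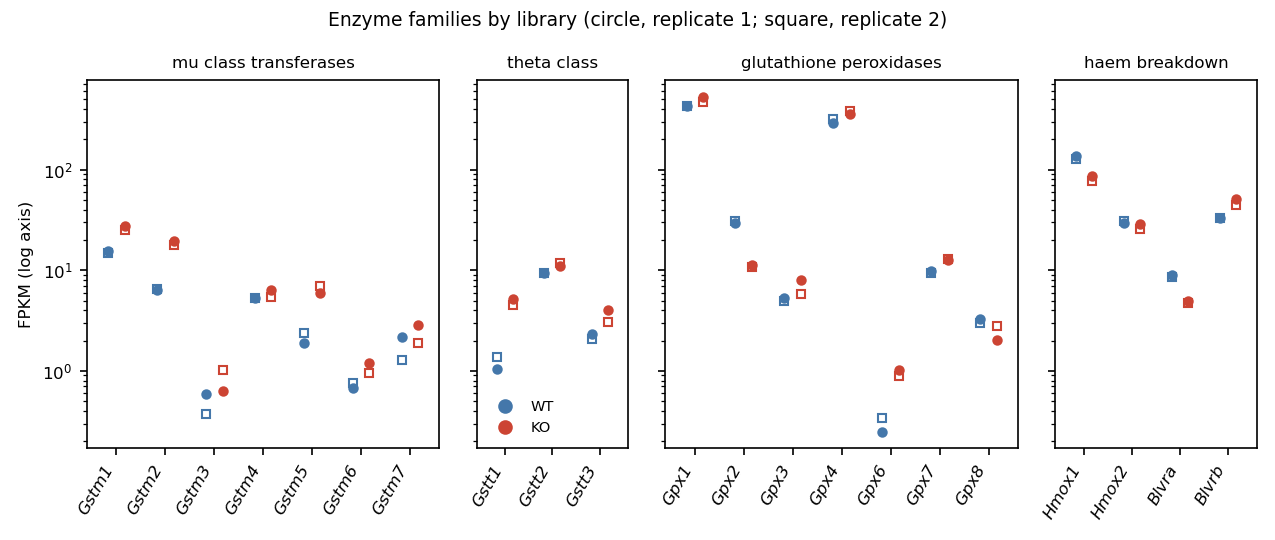
FPKM on a log axis (y axis) in each library for the mu and theta class transferases, the glutathione peroxidases and the genes of heme breakdown (x axis), with WT in blue, KO in red, circles for replicate 1 and squares for replicate 2. *Gstm2*, *Gstm5* and *Gstt1* stand clearly higher in KO, *Gpx2* falls from about 30.3 to 11.0 FPKM on average, and *Hmox1* and *Blvra* are lower in KO while *Blvrb* is higher.

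Among the other NRF2 regulators and targets, *Sqstm1*, which encodes the autophagy receptor p62 that binds KEAP1, rose the most, from 58.6 and 57.6 FPKM in WT to 133 and 122 FPKM in KO (log2 fold change 1.13, standard error 0.08, adjusted p = 0.00226). *Cbr3*, a carbonyl reductase, had 54.4 and 57.5 FPKM in WT and 102 and 97.0 FPKM in KO (log2 fold change 0.83, adjusted p = 0.00473). The mitochondrial isocitrate dehydrogenase *Idh2*, which makes NADPH in the same compartment as NNT, had 51.4 and 51.0 FPKM in WT and 89.6 and 84.7 FPKM in KO (log2 fold change 0.76, adjusted p = 0.00522). Its feature shares its coordinates with *Zfp710*. *Bach1*, the repressor that competes with NRF2 and is best known for holding *Hmox1* down, also rose, from 3.57 and 3.44 FPKM to 5.96 and 5.83 FPKM (log2 fold change 0.73, adjusted p = 0.0147). In the opposite direction, the cytosolic malic enzyme *Me1*, another source of NADPH, fell from 17.2 and 19.3 FPKM to 8.81 and 10.3 FPKM (log2 fold change -0.93, adjusted p = 0.00930). In heme breakdown, *Blvra*, which reduces the biliverdin made by heme oxygenase, fell with *Hmox1*, from 8.89 and 8.63 FPKM to 4.91 and 4.74 FPKM (log2 fold change -0.85, adjusted p = 0.00789). The second biliverdin reductase gene, *Blvrb*, singled out here after its values were seen, rose from 33.2 and 33.4 FPKM to 50.6 and 44.1 FPKM (log2 fold change 0.50, adjusted p = 0.0242), a call that was lost without KO replicate 1 (0.0635). The constitutive heme oxygenase gene *Hmox2*, likewise singled out, did not pass (log2 fold change -0.14, adjusted p = 0.343).

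In the thioredoxin lists, nucleoredoxin, *Nxn*, fell from 21.2 and 19.8 FPKM in WT to 13.5 and 11.2 FPKM in KO (log2 fold change -0.73, adjusted p = 0.0168). Of the sestrins, stress proteins that also restrain mTORC1, *Sesn3* rose from 2.72 and 2.77 FPKM to 5.24 and 4.98 FPKM (log2 fold change 0.87, adjusted p = 0.0111), whereas *Sesn1* fell from 5.12 and 4.71 FPKM to 3.08 and 3.21 FPKM (log2 fold change -0.63, adjusted p = 0.0285). The most abundant sestrin gene, *Sesn2*, had 53.9 and 44.7 FPKM in WT and 56.9 and 49.0 FPKM in KO. Its genotypes overlapped and it did not pass (log2 fold change 0.11, adjusted p = 0.610). The call for *Sesn1* was lost without WT replicate 1 (0.0696) or KO replicate 1 (0.0638).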

How the data were processed

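RNA-seq of 2 WT and 2 *Bmal1* KO ESC libraries was used, grouped by their labels. The authors aligned the reads to GRCm38 with TopHat2 (2.1.1) and Bowtie2 (2.3.0), guided by known transcripts, and deposited the FPKM per feature that Cufflinks (2.2.1) estimated. Read numbers cannot be recovered from FPKM, so depth is unknown. Rows were matched by symbol, comma-merged symbols being split. Cufflinks merges overlapping genes under shared coordinates (9 of the 39 genes), and strand use in counting is not given in the sources used here. Of the other pathway genes named as having passed, *Oplah*, *Gls2*, *Idh2* and *Me1* also lie on coordinates shared with another row.

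The deposited values were analysed as log2(FPKM + 0.1) for features with a mean of at least 0.5, with limma (3.58.1, R 4.3.3), a trend in the variance and Benjamini-Hochberg adjustment over 12990 features, a script checked on simulated data. Fold changes are on this scale and understate changes of low genes. An exact permutation test of 1 gene cannot go below p = 0.333 here. Tables and plots were made in Python 3.11.15 with pandas 2.3.3, numpy 2.4.6 and matplotlib 3.10.9. Gene positions are from GENCODE. The genes, lists and markers were chosen with earlier results of these data known. Members that passed are given in full, and of the other pathway genes those that passed with at least 1.5-fold, at most 4 per list and direction. *Blvrb*, *Chac1* and *Gls2* passed with less than 1.5-fold and were added after their values were seen. *Akr1b3*, *Gstcd*, *Txndc5* and *Eefsec* also fell by less than 1.5-fold and are not described above. The most abundant of these, *Akr1b3*, averaged 354 FPKM in WT and 262 FPKM in KO (log2 fold change -0.43, adjusted p = 0.0181 from limma). The 10 alternatives were 2 pseudocounts (1 and 0.01), no filter, a minimum of 1, quantile normalization, median-of-ratios scaling, an equal sum over features with a symbol, a replicate block, no variance trend, and summed rows per symbol. Each of the 4 libraries was also left out.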

Additional observations from a re-analysis of the deposited data

How the results depend on the processing

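Across the alternatives the direction of no antioxidant gene that passed was reversed, and *Nnt*, *Gstm1*, *Gstm5*, *Cat*, *Nqo1* and *Hmox1* passed in all 10 alternatives and without each library. The number of antioxidant genes higher in KO was 10 as reported, 6 with no filter on low values, 5 with no trend in the variance and 21 with the replicate block, under which 3 were lower and 5 genes of the thioredoxin branch passed: *Prdx2* (adjusted p = 0.0274), *Prdx3* (0.0196), *Prdx4* (0.0169), *Prdx5* (0.0236) and *Txn1* (0.0177). *Sod2* was lost with no trend alone (adjusted p = 0.0559), and *Gss*, *Gpx7*, *Nfe2l2* and *Fth1* both with no trend and with no filter. Without 1 library, 7 to 10 genes were higher, 1 to 2 lower and 1 to 2 past 2-fold. The median log2 fold change of the tested antioxidant genes was 0.28 with quantile normalization and 0.28 with an equal sum over features with a symbol. Of the other pathway genes, 19 were higher and 28 lower with the replicate block, 8 were lower with no filter and 7 with no trend. The cause of these shifts was not tested. Of the 19 other pathway genes named as having passed, 13 stayed past in every setting, while *Gpx6*, *Oplah*, *Ggct*, *Sesn1*, *Blvrb* and *Chac1* did not. The replicate number is no stated pairing: with 2 pairs, the differences between replicates correlated across features with Pearson's r = 0.0712 and Spearman's rho = 0.387 between genotypes (features are not independent), and with the block 13.9% of all features rose and 17.3% fell. Depth limits are unknown, since FPKM carry no read numbers.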
